A study of Homo sapiens with 28 samples.

Results

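The RAS, RAP and RAL small GTPases were followed through a microRNA mimic experiment as 9 genes: NRAS and HRAS, the R-RAS type genes RRAS, RRAS2 and MRAS, the RAP genes RAP1A and RAP1B, and the RAL genes RALA and RALB. They were picked by gene symbol from a table of 30887 rows, and each symbol matched 1 row. Kelly cells, an established neuroblastoma line with an amplified MYCN gene, had been transfected with 25 nM of a synthetic microRNA mimic and collected 48 h later for RNA sequencing. The 6 mimics copied miR-99b-5p of chromosome 19, miR-380-3p and miR-485-3p, both of chromosome 14, miR-100-3p of chromosome 11, miR-1915-3p of chromosome 10, and miR-1283, which has 2 loci on chromosome 19. A scrambled control oligonucleotide at the same dose and time was the comparison for all of them. Each of the 7 groups had 4 libraries, all from the same cell line, so every comparison below describes 1 line. Nothing in the labels ties the 4 libraries to separate cultures, and p-values therefore measure the spread between these libraries, which may be technical.

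These proteins are molecular switches that are active when bound to GTP and inactive when bound to GDP. Exchange factors load GTP and GTPase-activating proteins help hydrolyse it, and a lipid added to the carboxyl end anchors most of them to membranes. RAS proteins pass growth factor signals to the RAF, MEK and ERK kinases, a route that is of interest in relapsed neuroblastoma. RAP1 proteins act mainly on integrin adhesion and cell junctions, and RAL proteins act on vesicle tethering through the exocyst. A microRNA recognises messenger RNAs mostly through its seed, the bases at positions 2 to 8, which pair with a complementary heptamer, usually in the 3′ UTR.

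The mature sequences of the 6 mimics are shown because the seed decides which members could carry a site. They are from RefSeq on GRCh38.p14 and run 5′ to 3′, with the seed in capitals. No 2 of the 6 seeds were the same.
miR-99b-5p: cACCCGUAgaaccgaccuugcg
miR-380-3p: uAUGUAAUaugguccacaucuu
miR-485-3p: gUCAUACAcggcucuccucucu
miR-100-3p: cAAGCUUGuaucuauagguaug
miR-1915-3p: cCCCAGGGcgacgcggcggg
miR-1283: uCUACAAAggaaagcgcuuucu

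Heptamers complementary to these seeds were looked for in the longest annotated 3′ UTR of each member in GENCODE release 29 on GRCh38. The windows below, written in the direction of the messenger RNA, belong to the members whose changes are described first, and the heptamer is in capitals. NRAS holds a pair of miR-485-3p heptamers, at chr1:114707283-114707289 and chr1:114704740-114704746, and a pair for miR-380-3p, at chr1:114706960-114706966 and chr1:114705443-114705449, all on the minus strand in its last exon. RAP1B holds a miR-485-3p heptamer at chr12:68659544-68659550 and MRAS a miR-100-3p heptamer at chr3:138402644-138402650, both on the plus strand and in the last exon.
NRAS, miR-485-3p, UTR base 805: ccattttgtacaTGTATGAaattggtt
NRAS, miR-485-3p, UTR base 3348: ctaagatggaatTGTATGAactctgct
RAP1B, miR-485-3p, UTR base 295: caatgttgtacaTGTATGAaaatggtg
NRAS, miR-380-3p, UTR base 1128: gtatattaacaaATTACATtttcactg
NRAS, miR-380-3p, UTR base 2645: cagctgtcataaATTACATattccttt
MRAS, miR-100-3p, UTR base 375: acaagccatgaaCAAGCTTctttccct

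The first NRAS window and the RAP1B window had the same base at 23 of 27 positions. Both hold the run ttgtacaTGTATGAaa, 16 bases long, which occurred in the longest UTR of 2 of 16384 genes, or 0.0122%, so in no gene but these. All 3 miR-485-3p heptamers in these windows are followed by A. Of the genes that follow, NRAS (ENSG00000213281) lies at chr1:114704469-114716894 on the minus strand and RAP1B (ENSG00000127314) at chr12:68610839-68671901 on the plus strand. RAP1A (ENSG00000116473) lies at chr1:111542218-111716691 and MRAS (ENSG00000158186) at chr3:138347648-138405534, both on the plus strand. RRAS (ENSG00000126458) lies at chr19:49635292-49640201 and RRAS2 (ENSG00000133818) at chr11:14277926-14364506, both on the minus strand, and RALA (ENSG00000006451) at chr7:39623483-39708124 on the plus strand. A heptamer match is a description of the reference letters and not proof of a site.

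Libraries held between 10.99 M and 23.3 M counts (median 15 M). The sympathoadrenal markers chosen for Kelly cells were all present, with HAND2 at 397 to 894 CPM (counts scaled to the effective library size) and MYCN at 3230 to 6930 CPM. Of the markers of other cell types, PECAM1 of endothelium was at 0 in 26 of 28 libraries, and COL1A2 and DCN of fibroblasts in 27 and 26. COL1A1 (3.39 to 13.2 CPM), VWF (0.747 to 3.92 CPM), and KRT19 (0.948 to 3.4 CPM) and EPCAM (0.13 to 0.685 CPM) of epithelium were at 0 in no library. CDH5 of endothelium was at 0 in 21 libraries, LUM of fibroblasts in 5 and CD14 of blood cells in 7. Their highest values were 0.0881, 0.685 and 0.349 CPM. PTPRC and CD3E of blood cells and CDH1 of epithelium had no row. The summed level of the 8 sympathoadrenal markers ran from 5510 to 6980 CPM under miR-99b-5p, from 6350 to 7880 CPM under miR-380-3p, from 5830 to 7880 CPM under miR-485-3p and from 6560 to 7640 CPM under miR-1915-3p, where no member was called, all below the 8180 to 8980 CPM of the scrambled control. The summed level of the 4 fibroblast markers, nearly all of it COL1A1, was 3.6 to 5.22 CPM under miR-99b-5p, 10.9 to 13.4 CPM under miR-380-3p and 6.38 to 10.5 CPM in the scrambled control. That of the 3 endothelial markers, nearly all of it VWF, was 0.747 to 1.29 CPM under miR-99b-5p, 0.755 to 1.69 CPM under miR-485-3p and 2.19 to 3.12 CPM in the scrambled control. The 2 epithelial markers in the table, EPCAM and KRT19, summed to 1.24 to 1.5 CPM under miR-380-3p and 1.81 to 3.49 CPM in the scrambled control. Their part in the changes below was not tested. In bulk RNA, fewer cells of a kind and less RNA per cell cannot be told apart.

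In the scrambled control the 9 genes spanned a wide range of levels. Per length, as TPM computed from the deposited gene lengths, RAP1B stood at 85 ± 1.38 and NRAS at 83.6 ± 6.66 (SD, n = 4), and their libraries overlapped. RAP1A at 54.5 ± 5.69 TPM and RALA at 52 ± 1.69 TPM also overlapped and came next. HRAS at 20.1 ± 1.73 TPM and MRAS at 17.9 ± 0.384 TPM overlapped in turn. Below them and clear of each other were RRAS2 at 13.5 ± 1.3 TPM, RALB at 10.9 ± 0.702 TPM and RRAS at 1.67 ± 0.239 TPM. RRAS, the adhesion-linked R-RAS, had only 5 to 33 counts in a library, so its values are the least precise of the 9.

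All 9 genes passed the filter on low counts, and 54 values (9 genes under 6 mimics) were tested with the quasi-likelihood test of edgeR on all 28 libraries. A gene was called at a Benjamini-Hochberg adjusted p under 0.05 over the 15058 genes tested. Of the 54 values, 12 were called, 8 of them lower and 4 higher than in the scrambled control. HRAS and RALB were called under none of the 6 mimics. The comparisons share the same 4 control libraries.

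**Figure D1:**
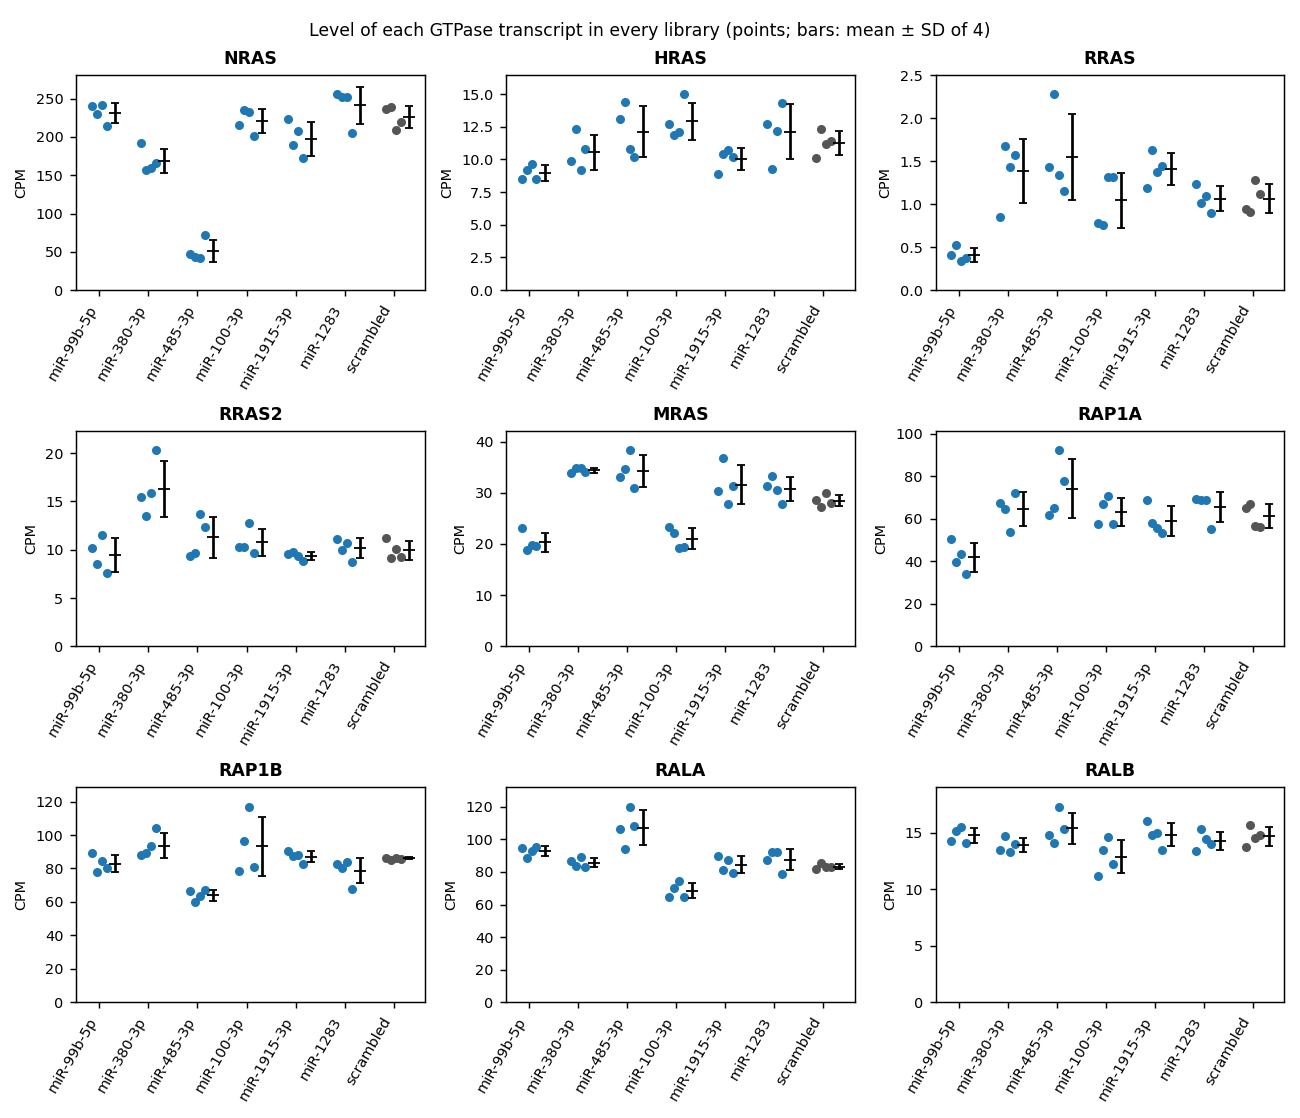
Level of each of the 9 transcripts in every library, in CPM on axes that start at 0, with mimics at the left (blue) and the scrambled control at the right (grey). Points are libraries and bars are the mean ± SD of 4. NRAS under miR-485-3p lies between 41.3 and 72.3 CPM, below every other library.

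NRAS was the most changed member. Its messenger RNA fell under miR-485-3p to 19.2 ± 5.88 TPM, where HRAS stood at 22 ± 2.44 TPM, and it also fell under miR-380-3p, where it was higher than under miR-485-3p (log2 difference 1.73). NRAS is a core RAS protein of the growth signalling route. In the miR-485-3p libraries it was at 46.9, 43.4, 41.3 and 72.3 CPM, against 237, 239, 209 and 219 CPM in the scrambled control. All 4 miR-485-3p libraries were below all 24 others, of which the lowest, under miR-380-3p, was at 157 CPM. The log2 change was -2.15 ± 0.13 (SE), or 4.44-fold lower, with an adjusted p of 2.18e-12. It ranked 18th from the lowest among the log2 changes of the 15058 genes tested. Without the highest of the 4 miR-485-3p libraries (replicate 5) the log2 change was -2.38. NRAS was also lower than under each of the 5 other mimics, by log2 differences from -1.73 to -2.24 (largest adjusted p 5.85e-11).

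Under miR-485-3p 4 members were called, 2 higher and 2 lower, where 21.1% of all genes tested were called, 10.5% higher and 10.6% lower. NRAS was the only member called at least 2-fold lower there, as were 1.77% of all genes. Libraries did not overlap with the control for 4 members, against 20.1% of all genes. The median log2 change of the 9 was 0.19, and that of all genes 0.02. RAP1B, the adhesion GTPase with the other miR-485-3p heptamer, was at 66.3, 59.7, 63.3 and 66.9 CPM in the miR-485-3p libraries, against 86.4, 85.2, 86.5 and 85.8 CPM in the scrambled control. The groups did not overlap, and the log2 change of -0.42 ± 0.09 passed (adjusted p 0.00139). RAP1B was lower there than under all 5 other mimics, by -0.3 to -0.55 (largest adjusted p 0.0224). RAP1A, its close relative, had no miR-485-3p heptamer and was at 74.2 ± 13.9 CPM, against 61.1 ± 5.63 CPM in the scrambled control (log2 0.28, adjusted p 0.119). With the per-library slope on GC content as a covariate the same change of RAP1A passed (log2 0.29, adjusted p 0.0093). With that covariate 4878 of all genes were called, against 3176 without it.

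RALA, which tethers vesicles with the exocyst, moved the other way and had no heptamer for miR-485-3p. It was at 106, 94, 120 and 108 CPM in the miR-485-3p libraries, against 81.5, 85.7, 82.9 and 82.8 CPM in the scrambled control, without overlap. It rose by a log2 change of 0.36 ± 0.07 (adjusted p 0.000304) and was higher than under the 5 other mimics by 0.2 to 0.65 (largest adjusted p 0.0213). MRAS, a partner of the phosphatase complex that activates RAF, was at 34.3 ± 3.06 CPM, against 28.5 ± 1.12 CPM in the scrambled control (log2 0.27 ± 0.09, adjusted p 0.0281). This call was lost without miR-485-3p replicate 3 (log2 0.19, adjusted p 0.189), and without scrambled control replicates 1, 2 or 5 (adjusted p 0.0576, 0.0757 and 0.06).

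**Figure D2:**
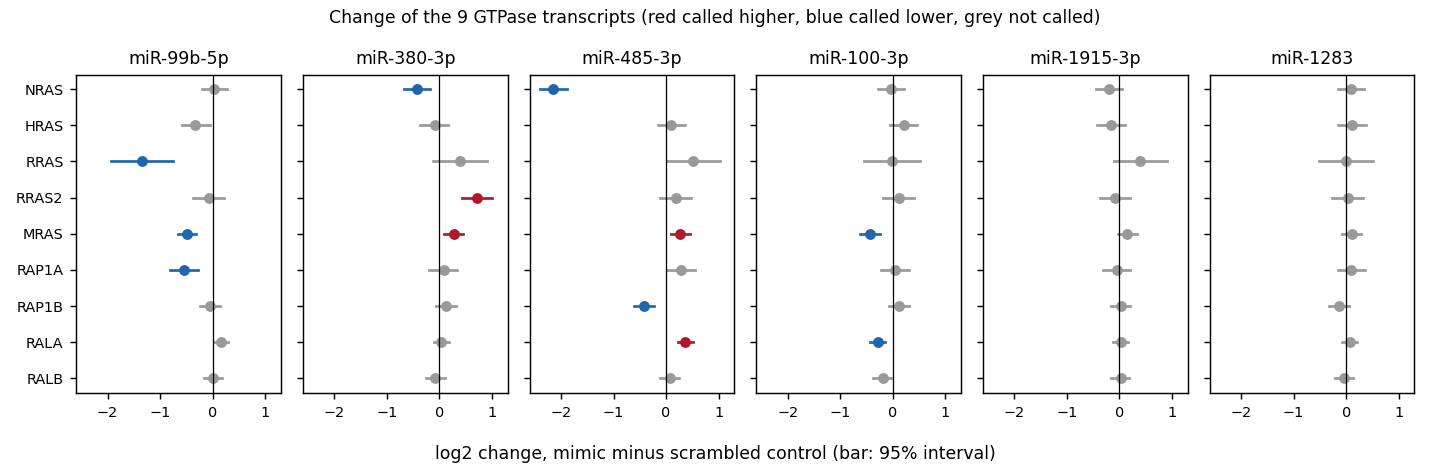
log2 change of each member, mimic minus scrambled control, with 95% intervals from the fit, 1 panel per mimic. Blue points were called lower, red points called higher and grey points not called. NRAS under miR-485-3p, at -2.15, and RRAS under miR-99b-5p, at -1.35, are the points past 2-fold.

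Under miR-380-3p 3 members were called, 2 higher and 1 lower, where 10.9% of all genes were called, 5.6% higher and 5.25% lower. Libraries did not overlap with the control for 4 members, against 17.4% of all genes. The median log2 change of the members was 0.08 and that of all genes was 0. NRAS was at 192, 157, 159 and 166 CPM in the miR-380-3p libraries, against 237, 239, 209 and 219 CPM in the scrambled control. These groups did not overlap, and the log2 change was -0.42 ± 0.12 (adjusted p 0.02). That call was lost without 1 of miR-380-3p replicates 2, 3 or 4 or scrambled control replicates 1 or 2 (adjusted p 0.0532 to 0.0716, log2 -0.39 to -0.42). NRAS was lower than under miR-99b-5p, miR-100-3p and miR-1283. Its difference from miR-1915-3p was -0.23, with a 95% interval of -0.48 to 0.02 (adjusted p 0.222).

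RRAS2, also called TC21 and a relative of RRAS that can activate growth signalling, rose under miR-380-3p. It was at 15.5, 13.5, 15.9 and 20.3 CPM in those libraries, against 11.2, 9.13, 10.1 and 9.27 CPM in the scrambled control. The libraries did not overlap, with a log2 change of 0.72 ± 0.14 (adjusted p 0.000929). RRAS2 was higher there than under the 5 other mimics, by 0.53 to 0.8 (largest adjusted p 0.00485). MRAS was at 34.4 ± 0.541 CPM under miR-380-3p, against 28.5 ± 1.12 CPM in the scrambled control (log2 0.27 ± 0.09, adjusted p 0.0407), and the call was lost without any 1 of the 4 miR-380-3p libraries or without scrambled control replicate 1, 2 or 5 (adjusted p up to 0.105). The difference in MRAS between miR-380-3p and miR-485-3p was 0.01, with a 95% interval of -0.17 to 0.19.

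Under miR-99b-5p 3 members fell and none rose, where 16.6% of all genes were called, 8.48% lower and 8.11% higher. Libraries did not overlap for 5 members, against 23.9% of all genes, and RRAS was called at least 2-fold lower, as were 1.32% of all genes. The median log2 change was -0.07 for the members and 0 for all genes. RRAS was at 0.407, 0.527, 0.333 and 0.369 CPM in the miR-99b-5p libraries (5 to 10 counts each), against 0.941, 0.913, 1.28 and 1.12 CPM in the scrambled control (12 to 17 counts each). The groups did not overlap, and the log2 change was -1.35 ± 0.29, or 2.54-fold lower (adjusted p 0.00136). It differed from each of the 5 other mimics by -1.33 to -1.86 (largest adjusted p 0.00119).

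RAP1A was at 50.4, 39.6, 43.3 and 33.8 CPM under miR-99b-5p, against 65.1, 66.8, 56.5 and 56 CPM in the scrambled control. Every miR-99b-5p library was below every control library, with a log2 change of -0.55 ± 0.13 (adjusted p 0.00331), and lower than under each other mimic by -0.5 to -0.83 (largest adjusted p 0.00631). RAP1B, with 82.9 ± 4.98 CPM under miR-99b-5p and 86 ± 0.603 CPM in the scrambled control, was not called (log2 -0.05, adjusted p 0.76). MRAS was at 23.1, 18.8, 19.8 and 19.6 CPM under miR-99b-5p, against 28.5, 27.3, 30 and 28.1 CPM in the scrambled control, with a log2 change of -0.49 ± 0.09 (adjusted p 0.000245). HRAS was at 8.96 ± 0.583 CPM against 11.2 ± 0.898 CPM in the scrambled control, and its libraries did not overlap, but the change missed the threshold (log2 -0.33, adjusted p 0.0816). It passed when only the 8 libraries of the comparison were fitted (adjusted p 0.0358). In that fit 2940 of all genes were called, against 2498 in the main fit.

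Under miR-100-3p 2 members fell and none rose, where 5.96% of all genes were called, 3.05% lower and 2.9% higher. The libraries of 2 members did not overlap, against 12.3% of all genes, and the median log2 change was -0.02 for the members and -0.01 for all genes. MRAS was at 23.4, 22.1, 19.2 and 19.5 CPM under miR-100-3p, against 28.5, 27.3, 30 and 28.1 CPM in the scrambled control, without overlap (log2 -0.44 ± 0.09, adjusted p 0.00265). RALA was at 64.9, 70.1, 74.2 and 64.6 CPM there, against 81.5, 85.7, 82.9 and 82.8 CPM in the scrambled control, again without overlap (log2 -0.28 ± 0.07, adjusted p 0.012). With only the 8 libraries of the comparison RALA missed the threshold (adjusted p 0.0607). In that fit 491 of all genes were called. HRAS was not called (log2 0.21, adjusted p 0.399) and passed with the GC slope as a covariate (log2 0.28, adjusted p 0.0491). With that covariate 1764 of all genes were called, against 897 without it. RALA was lower than under each other mimic, by -0.3 to -0.65 (largest adjusted p 0.00421).

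MRAS changed in both directions, lower under 2 mimics and higher under 2. The log2 difference between miR-99b-5p and miR-100-3p was -0.05, with a 95% interval of -0.24 to 0.13 (adjusted p 0.728). Both were lower than each of the other 4 mimics.

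Under miR-1915-3p and miR-1283 edgeR called no member, and 0 members had an unadjusted p under 0.05 in either comparison. DESeq2 and limma-voom also called 0. The background was 0.246% of all genes called under miR-1915-3p, 0.0133% higher and 0.232% lower, and 0.0199% under miR-1283, 0% higher and 0.0199% lower. The largest member change under miR-1915-3p was RRAS at log2 0.4 (95% interval -0.1 to 0.91), and none of the 9 had libraries that did not overlap, against 6.63% of all genes. Under miR-1283 the changes ran from -0.13 to 0.11, and RAP1B alone had libraries that did not overlap, against 3.07% of all genes.

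For the direct comparisons between mimics, 15 pairs and 135 member values were tested. Of all genes, 24% were called between miR-99b-5p and miR-380-3p, 33.5% between miR-99b-5p and miR-485-3p, 23.4% between miR-99b-5p and miR-100-3p, 19.1% between miR-99b-5p and miR-1915-3p and 15.3% between miR-99b-5p and miR-1283. The share was 29% between miR-380-3p and miR-485-3p, 17.4% between miR-380-3p and miR-100-3p, 14.5% between miR-380-3p and miR-1915-3p and 11.6% between miR-380-3p and miR-1283. It was 28.5% between miR-485-3p and miR-100-3p, 23.1% between miR-485-3p and miR-1915-3p and 19.5% between miR-485-3p and miR-1283. It was 11.4% between miR-100-3p and miR-1915-3p, 5.8% between miR-100-3p and miR-1283 and 0.252% between miR-1915-3p and miR-1283. HRAS, which was called under no mimic against the control, was lower under miR-99b-5p than under miR-485-3p, miR-100-3p and miR-1283, by -0.43, -0.53 and -0.44 (adjusted p 0.00977, 0.00249 and 0.0167). RALB, the other RAL protein, was higher under miR-485-3p than under miR-100-3p by 0.26 (adjusted p 0.0218).

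The make-up of the pooled transcripts was set out per length. Summed per length, the 9 members stood at 293 ± 37.2 TPM under miR-485-3p and 339 ± 15.1 TPM in the scrambled control (SD, n = 4), a description without a test. NRAS made up 6.54 ± 1.73% of that sum under miR-485-3p and 18.2 ± 1.63% under miR-380-3p, against 24.6 ± 0.909% in the scrambled control. Of NRAS plus HRAS, NRAS was 46 ± 9.19% under miR-485-3p and 80.5 ± 1.55% in the scrambled control. RAP1B was 49.2 ± 4.61% of RAP1A plus RAP1B under miR-485-3p and 69 ± 2.61% under miR-99b-5p, against 61 ± 2.26% in the scrambled control. RALA was 81.8 to 85.4% of RALA plus RALB in all 7 groups. The deposited gene lengths enter all of these, and RAP1B counts were not whole in 18 of 28 libraries, since expected counts can split reads shared between genes. RAP1BP3, a processed pseudogene of RAP1B in the table, had 0 counts in all 28 libraries.

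**Figure D3:**
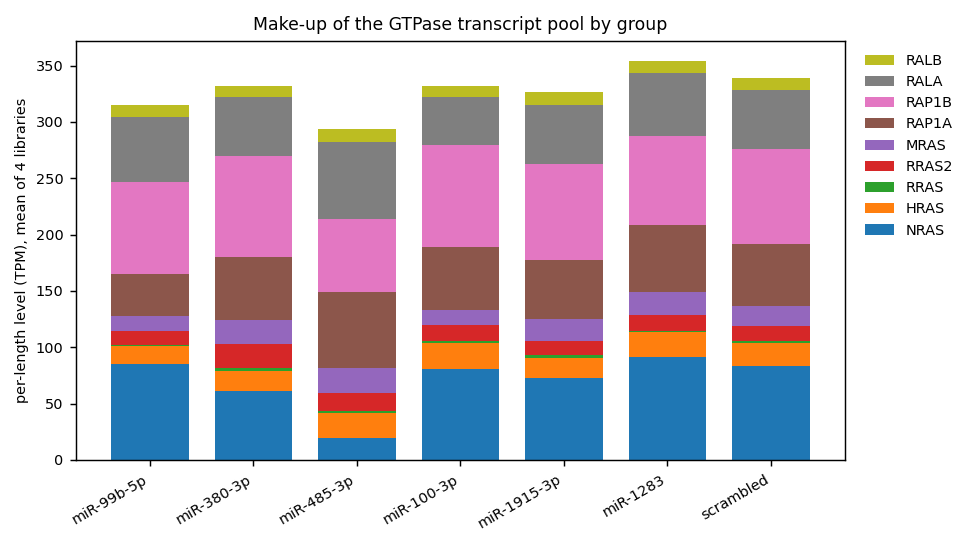
Per-length level (TPM) of the 9 members stacked by group, mean of 4 libraries, mimics at the left and the scrambled control at the right. The NRAS segment is 19.2 TPM under miR-485-3p and 83.6 TPM in the scrambled control, while the whole bar is 293 and 339 TPM.

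Seed heptamers stood beside some of these changes and not others. Of 13 member and mimic pairs with a heptamer in the longest 3′ UTR, 4 were called lower and 0 higher. Of the 41 pairs without one, 4 were called lower and 4 higher. Over all genes, the share called lower with a heptamer was 38.2% under miR-99b-5p, against 8.76% without one. It was 13.9% against 4.12% under miR-380-3p and 8.7% against 2.71% under miR-100-3p. Under miR-1915-3p it was 0.431% against 0.223%, and under miR-1283 0.0375% against 0.02%. Under miR-485-3p both members with a heptamer fell, NRAS and RAP1B, where 26.6% of all genes with a heptamer were called lower against 8.13% of those without. Genes with 2 or more heptamers were called lower in 39.5% of cases, with a median log2 change of -0.22, and NRAS was at -2.15. Heptamers for miR-485-3p were present in 13.8% of all genes with a UTR.

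Under miR-99b-5p the RAP1 pair was arranged differently. RAP1B has a miR-99b-5p heptamer in the longest of its 11 annotated UTRs, at chr12:68660578-68660584, and was not called, where 38.2% of all genes with such a heptamer were called lower. RAP1A, which fell, has none in its UTR and 1 in the coding sequence, at chr1:111703454-111703460. The 2 windows are shown for that contrast, with the heptamer in capitals.
RAP1B, miR-99b-5p, UTR base 1329: ctagtaaataaaTACGGGTttaccctg
RAP1A, miR-99b-5p, coding base 302: gggaacagatttTACGGGTtaaggaca

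RRAS and MRAS fell under miR-99b-5p without a miR-99b-5p heptamer in the longest UTR, and RALA fell under miR-100-3p without a miR-100-3p heptamer there. RALA does hold 2 of the shorter miR-100-3p hexamers, complementary to positions 2 to 7, and RRAS and MRAS hold 0 miR-99b-5p hexamers. The RAP1B heptamer for miR-99b-5p is in 1 of 11 annotated UTRs of that gene, whereas its miR-485-3p heptamer is in 7 of 11, and the MRAS miR-100-3p heptamer in 5 of 6. The deposited lengths of RAP1B (1660.67 bases) and MRAS (2607.63 bases) are shorter than their longest annotated transcripts (13438 and 4377 bases), while NRAS is 4449 bases in both. Which UTRs Kelly cells use was not tested. In the NRAS UTR, miR-1915-3p and miR-1283 have 1 heptamer each, and NRAS was not called under either.

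Genes with a pattern most like NRAS over 28 libraries, among the 11470 others whose log2 CPM averaged 2 or more, were RHOQ (r = 0.986), VAMP7 (0.972), LYN (0.97), ELAVL2 (0.968) and SRP9 (0.965). These correlations are set mainly by the 4 miR-485-3p libraries, which stand apart, and are a description. RHOQ, another small GTPase, was at 11.2 ± 2.01 CPM under miR-485-3p and 53 ± 1.86 CPM in the scrambled control (log2 -2.24). Of the 5, RHOQ, LYN, ELAVL2 and SRP9 hold at least 1 miR-485-3p heptamer in the longest UTR and VAMP7 holds none. VAMP7 lies in a pseudoautosomal region, and a copy of it has a row of its own. The genes most like RRAS were GMDS (r = 0.883), LSM4 (0.862), GFRA2 (0.862), DDX49 (0.85) and FIBP (0.846). The low miR-99b-5p libraries weigh in these correlations as well, so that lower levels of the 5 genes there follow from how they were chosen.

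Among 105 tested genes of 9 lists around these GTPases, 31.4% were called under miR-485-3p, 25.7% under miR-99b-5p, 14.3% under miR-380-3p, 9.52% under miR-100-3p, 1.9% under miR-1915-3p and 0% under miR-1283. Each is set beside the share of all genes given above for the same mimic.

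Under miR-485-3p the downstream kinase MAP2K1, which encodes MEK1, fell along with NRAS. It was at 18.7, 18.5, 18.4 and 20 CPM, against 44.7, 46.7, 41.9 and 40.7 CPM in the scrambled control, without overlap (log2 -1.2 ± 0.1, adjusted p 1.68e-09). MAP2K1 holds 1 miR-485-3p heptamer. Of the 16 tested effectors and scaffolds of RAS and RAP, 2 rose and 1 fell under miR-485-3p, with a median log2 of 0.03 (all genes 0.02). That is 18.8% called, below the 21.1% of all genes.

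Transcripts that ERK signalling induces were read next. Of 17 tested, 7 rose and 0 fell under miR-99b-5p (median log2 0.16, all genes 0), or 41.2% called, where 8.11% of all genes rose and 8.48% fell. They include SPRY2, a feedback inhibitor of RAS signalling, at 52.2 ± 5.34 CPM against 26.4 ± 2.46 CPM in the scrambled control (log2 0.98 ± 0.08, adjusted p 1.39e-09). PHLDA1 also rose, by 1.91 ± 0.27, and CCND1, the cyclin D1 gene, by 0.49 ± 0.06. Under miR-485-3p 3 rose and 6 fell (median -0.03, all genes 0.02), or 52.9% called, where 10.5% of all genes rose and 10.6% fell. Among those that fell were SPRED2 at -0.44 ± 0.06, ETV1 at -0.53 ± 0.12 and EGR1 at -2.36 ± 0.57. SPRY2 (-0.33, adjusted p 0.00521) and DUSP6 (-0.43, adjusted p 0.00857) also fell under miR-485-3p. Under miR-99b-5p SPRY2, DUSP6, SPRED2 and ETV1 had all been called higher, DUSP6 at 0.39, SPRED2 at 0.32 and ETV1 at 0.35. PHLDA1 (0.88 ± 0.28, adjusted p 0.0273) and CCND1 (0.21 ± 0.06, adjusted p 0.0142) rose under miR-485-3p as well as under miR-99b-5p. In the longest UTR SPRED2 holds 2 miR-485-3p heptamers, and ETV1 and PHLDA1 hold 1 each. EGR1, SPRY2, DUSP6 and CCND1 hold 0. EGR1, an immediate early gene, overlapped between its groups. It was at 28.6, 23.5, 10.2 and 2.92 CPM in miR-485-3p replicates 1, 2, 3 and 5. In scrambled control replicates 1, 2, 4 and 5 it was at 187, 82.5, 48.1 and 15.7 CPM. At each replicate number that both groups hold, the miR-485-3p library was lower. The same was true of every other mimic except miR-99b-5p, yet EGR1 was called under none of the other mimics. This order therefore does not set miR-485-3p apart, and replicate numbers were not used as pairs in the main fit.

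Under miR-380-3p 1 of the 17 rose and 4 fell (29.4% called, all genes 10.9%, with a median of -0.16), with SPRY4 at -1.19 ± 0.15 and the ETS factor ETV4 at -1.27 ± 0.21. Under miR-100-3p 0 rose and 3 fell, ETV5 (-0.77 ± 0.07), ETV4 (-0.79 ± 0.2) and SPRY4 (-0.55 ± 0.15), with a median of -0.18 (all genes -0.01) and 17.6% called (all genes 5.96%). ETV5 also fell under miR-1915-3p (-0.4 ± 0.07, adjusted p 0.00564), and 1 of 17, or 5.88%, was called there, against 0.246% of all genes (median -0.25, all genes 0). Under miR-1283 0 of 17 were called, against 0.0199% of all genes (median -0.08, all genes -0.01). SPRY4 was at -0.56 under miR-1915-3p and -0.55 under miR-1283, and ETV4 was at -0.54 and -0.08, in the same order. None of these values was called.

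**Figure D4:**
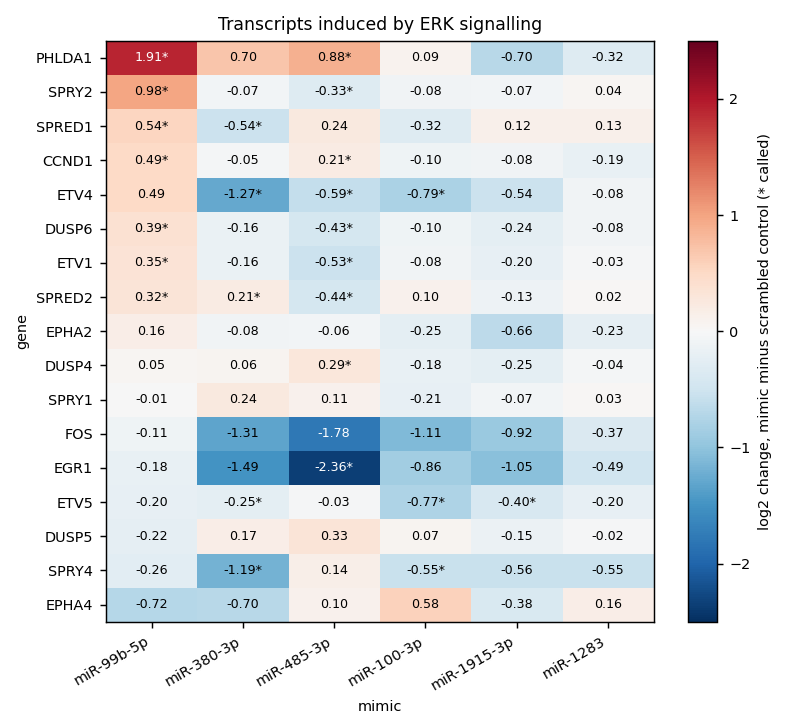
log2 change of 17 transcripts induced by ERK signalling, mimic minus scrambled control, 1 column per mimic, ordered by the change under miR-99b-5p. Red is higher, blue is lower, and an asterisk marks genes called; 7 are called higher under miR-99b-5p and 6 lower under miR-485-3p.

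Some regulators of RAL and RAP were called, and most were not. Of 8 tested RAL exchange factors and GTPase-activating proteins, 1 rose and 2 fell under miR-485-3p (37.5% called, all genes 21.1%; median -0.07, all genes 0.02). RALGPS2, a RAL exchange factor with 1 miR-485-3p heptamer, was at 2.16 ± 0.255 CPM against 5.09 ± 1.25 CPM in the scrambled control (log2 -1.23 ± 0.19, adjusted p 2.87e-05). RALGPS1, its relative, fell by -0.59 ± 0.08 and holds 0 miR-485-3p heptamers, whereas RGL1 holds 1 and rose by 0.49 ± 0.08. Of 12 tested RAP exchange factors and GTPase-activating proteins, 1 rose and 3 fell under miR-380-3p (33.3% called, all genes 10.9%; median -0.13, all genes 0), with RAP1GAP2 at -0.57 ± 0.08, RAP1GAP at -0.58 ± 0.11 and RAPGEF3 at -0.74 ± 0.17. Under miR-485-3p 4 of the same 12 rose and 1 fell (41.7% called, all genes 21.1%, with a median of 0.18).

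Genes of prenylation and membrane delivery, which place RAS proteins at membranes, held a few called members under 5 of the mimics. Of 14 tested, 2 rose and 3 fell under miR-99b-5p (35.7% called, all genes 16.6%, with a median of -0.06), with ICMT, the carboxyl methyltransferase, at -0.39 ± 0.06 and ARL3 at -0.52 ± 0.08. PDE6D, a chaperone of prenylated RAS proteins, was the 1 called under miR-380-3p (7.14%, all genes 10.9%), at 15 ± 1.56 CPM against 24.4 ± 2.34 CPM in the scrambled control (log2 -0.71 ± 0.1, adjusted p 1.14e-05). GOLGA7, part of the palmitoyltransferase that acts on NRAS and HRAS, was the 1 called under miR-1915-3p (7.14%, all genes 0.246%), at 27.1 ± 2.81 CPM against 51.5 ± 2.45 CPM in the scrambled control (log2 -0.93 ± 0.09, adjusted p 2.39e-07). Of 19 other RAS family GTPases, 3 rose and 4 fell under miR-485-3p (36.8% called, all genes 21.1%, with a median of 0.28). RAP2A at -0.51 ± 0.11 and RIT1 at -0.35 ± 0.08 were among those that fell, and NKIRAS1 at 0.46 (adjusted p 0.00209) among those that rose. Under miR-99b-5p 4 rose and 1 fell, RHEBL1 at -1.51 ± 0.25 (26.3% called, all genes 16.6%, with a median of 0.01).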

How the data were processed

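RNA sequencing libraries from Kelly cells were aligned to hg19 with STAR, per the submitters' processing notes; the counting tool and annotation are not given in the sources used here. The authors deposited expected counts per gene, 10.2% of them not whole, and a gene length column, used for per-length TPM. Expected counts were rounded to whole numbers and tested with edgeR 4.0.16 (R 4.3.3; filterByExpr, TMM scaling, glmQLFit and glmQLFTest, 21 residual degrees of freedom, two-sided) on all 28 libraries, with Benjamini-Hochberg adjustment over 15058 genes. CPM use effective library sizes. The test was checked on simulated data. Alternatives used limma 3.58.1 and DESeq2 1.42.0. Column totals ran from 10.99 to 23.3 M; precision is set by the spread between libraries. Titles of miR-1915-3p replicates 1 and 4 carry a suffix of unstated meaning. No column lacked a sample (0 unassigned).

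Seed sites were searched in GENCODE release 29 UTRs of at least 50 bases on GRCh38. The files hold no coordinates, so all coordinates are from this annotation. The named genes are the 9 members, up to 3 called genes per list and comparison by adjusted p, and the 5 genes nearest to a member called at 2-fold. Some that met the rule are not described. Beyond the rule, ERK-induced genes called under both miR-99b-5p and miR-485-3p were named under both. The members and lists were chosen with earlier results of these data known. Protein sequences were not used here.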

Additional observations from a re-analysis of the deposited data

Results flagged for a closer look

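Of 63 groups of 4 libraries checked (9 members in 7 groups), 2 held a library farther from the rest than a Dixon test allows at the 95% level; chance flags about 1 in 20 groups. NRAS in miR-1283 replicate 4 was at 205 CPM, against 252 to 256 CPM in the other 3 libraries. RAP1A in the same library was at 55.1 CPM, against 68.6 to 69.4 CPM.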

How the results depend on the processing

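No called change reversed its direction in any setting tried, and leave-one-out fits dropped each library of a comparison in turn. MRAS under miR-380-3p (log2 0.27) missed the threshold with no low-count filter (0.27, adjusted p 0.149) and with the library code as a covariate (0.27, 0.0538), and its values ranged from 0.25 to 0.3 when a library was left out. MRAS under miR-485-3p missed it with upper-quartile scaling (0.23, 0.0694), no filter (0.25, 0.136) and only the 8 libraries of the comparison (0.25, 0.0821), and ranged from 0.19 to 0.3 when a library was left out. RALA under miR-100-3p missed it with only the 8 libraries (-0.28, 0.0607), so that 1 member was called there in place of 2. Of all genes, 491 were called in that fit, against 897 in the main fit. With the GC slope as a covariate 3 members were called under miR-100-3p, since HRAS passed (0.28, 0.0491). The genes called over the whole table were then 1764, against 897 in the main fit. Leaving out a library gave -0.49 to -0.39 for NRAS under miR-380-3p, and 1 to 3 members called under that mimic. In the fits with 1 member called, 1056 to 1755 of all genes were called, against 1634 in the main fit. With hexamer in place of heptamer sites, members with a site numbered 4 for miR-380-3p, 5 for miR-100-3p, 4 for miR-1915-3p and 5 for miR-1283. The shares of all genes with a UTR that hold such a hexamer were 37.2%, 38.9%, 56.8% and 33.7%, in the same order. RRAS could not be tested with a mean CPM of at least 5. Same-numbered libraries deviated together only weakly on average (mean r 0.052 over 67 pairs, from -0.338 to 0.546, 27 over 0.1). The mean over 269 other pairs was -0.013, and 8 of 27 libraries correlated best with their own number. The numbers were not used as pairs in the main fit. EGR1 fell with rising replicate number in the scrambled control, miR-380-3p and miR-485-3p groups and rose with it under miR-99b-5p. With the replicate block, MRAS under miR-380-3p was 0.26 (adjusted p 0.0611), and no other member call changed. Depth limits RRAS most, at 5 to 33 counts a library.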
